A study of Homo sapiens with 8 samples.

Results

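The 35 genes described here encode aminoacyl-tRNA synthetases, the enzymes that load each tRNA with its amino acid. They were taken by gene name, with earlier results of these data known, and make up 35 of the 16525 genes in the deposited expression table. Of these, 19 are cytosolic (names ending in ARS1, with FARSA and FARSB) and 16 are mitochondrial (names ending in ARS2). All 35 are in the table because they were chosen from it. Whether a synthetase was lost to the authors' filter on low expression was not tested. The aspartyl-tRNA synthetases were not analysed here.

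Every cell keeps separate sets of synthetases for its translation systems. The cytosolic enzymes serve the ribosomes that translate nuclear mRNA, whereas the mitochondrial enzymes are made in the cytosol, imported, and serve the ribosomes that translate the respiratory-chain subunits encoded in mitochondrial DNA. GARS1 and KARS1 supply both compartments, and several cytosolic enzymes are held together in the multisynthetase complex by the scaffold proteins AIMP1, AIMP2 and EEF1E1. WARS1, the cytosolic tryptophanyl-tRNA synthetase, is a known interferon-inducible gene, and a number of other cytosolic synthetase genes are known targets of ATF4, the transcription factor of the amino acid response.

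EndoC-βH5 is a human beta-cell line that originates from fetal pancreatic tissue and was immortalized, after which the immortalizing transgenes were removed. RNA was sequenced from 4 libraries of untreated control cells and 4 libraries of cells exposed for 48 h to a mix of IFNγ and TNFα at 1000 U/mL each with IL-1β at 50 U/mL. All 8 libraries come from this line, so they speak for a single cell model. Libraries are called A to D by the part of the column name that a control and a cytokine library share, and that shared part holds the number 21 for A and B and 22 for C and D, whose meaning the sources used here do not give.

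The libraries held between 36577438 and 40117636 reads on the listed genes. Libraries of the same group differed by more than counting error (chi-square per gene of 5.901 to 295.8). All 10 beta-cell markers were in the table and summed to 6814 to 11228 CPM (reads scaled to the size of the library) in control and 8698 to 16385 CPM in cytokine libraries, with INS at 1158 to 2905 CPM and 1445 to 2172 CPM. Of these markers limma called 6 of 10 lower and 0 higher, beside 17.5% and 9.52% of all genes, and 4 lower and 1 higher with TMM scaling. At the lower end were G6PC2 (log2 fold change -2.60), MAFA (-2.27) and SLC30A8 (-1.20). Other markers of the list had positive estimates that limma did not call, namely IAPP (0.93), PCSK1 (0.42) and NKX6-1 (0.39). IAPP was at 2710 to 6746 CPM in control and 5361 to 12704 CPM in cytokine libraries, a large part of the summed values. The 4 markers of other islet cells summed to 463 to 2177 CPM and 553 to 1996 CPM, most of it SST. Of the exocrine and duct list 2 of 4 genes were in the table, summing to 88.2 to 167 CPM and 84.6 to 166 CPM, and CPA1 was called lower (-1.06). Of the stromal and endothelial list 1 of 3 genes was in the table, COL1A1, which did not exceed 0.844 CPM. The 3 immune markers were not in the table and so were not analysed here. The part of these marker levels in the results below was not tested. In RNA from whole cultures, a loss of some cells and a lower RNA content per cell cannot be told apart.

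WARS1 carried by far the largest change among the synthetases. Its expression was 92.7, 95.1, 104 and 75.1 CPM in control libraries A to D and 4408, 4239, 5064 and 4009 CPM in cytokine libraries A to D. Every cytokine library lay far above every control library, and the groups did not approach each other. Mean expression went from 91.6 ± 11.95 CPM in control to 4430 ± 453 CPM in cytokine libraries (SD, n = 4 each), a 48.4-fold rise (log2 fold change 5.60, SE 0.15, limma adjusted p = 1.08e-09). The gene ranked 56 of 16525 by log2 fold change, and its rank by mean CPM moved from 1655 in control to 12 in cytokine libraries. The log2 difference was 5.52 in libraries A and B and 5.67 in C and D.

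WARS1 lies at chr14:100333788-100376805 on the minus strand (GRCh38, GENCODE 29). RefSeq (GRCh38.p14) lists it with a pair of start sites, and both promoter windows, 250 bases before to 50 after the start, are shown because the gene carries the main change. Capitals mark letters of the GAS motif (the gamma-activated site, found in many IFNγ-responsive promoters, searched as TTCNNNGAA) and of the ISRE motif (the interferon-stimulated response element, searched as GAAA, any 2 bases, GAAA), on both strands. The motifs were chosen after the expression values were known, and a match is a run of letters, not a measured binding site. The upstream window, chr14:100376278-100376577, and the downstream window, chr14:100375298-100375597, read 5′ to 3′ on the minus strand as follows.
WARS1 upstream promoter: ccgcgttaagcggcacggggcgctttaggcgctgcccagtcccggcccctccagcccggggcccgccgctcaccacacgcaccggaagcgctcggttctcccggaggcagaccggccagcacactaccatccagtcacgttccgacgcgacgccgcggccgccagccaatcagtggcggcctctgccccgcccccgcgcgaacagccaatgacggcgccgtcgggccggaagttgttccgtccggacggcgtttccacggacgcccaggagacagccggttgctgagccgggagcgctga
WARS1 downstream promoter: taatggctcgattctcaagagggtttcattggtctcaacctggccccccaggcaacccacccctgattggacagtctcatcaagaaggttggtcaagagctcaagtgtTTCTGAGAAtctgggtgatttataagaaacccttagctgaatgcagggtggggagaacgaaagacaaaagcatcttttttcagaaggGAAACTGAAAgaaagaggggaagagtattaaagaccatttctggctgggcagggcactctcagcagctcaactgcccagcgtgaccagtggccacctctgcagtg
The downstream window holds a GAS match that begins at base -142 and an ISRE match that begins at base -55 from the start site, and the pair do not overlap. Neither pattern of letters is in the upstream window. Among all 35116 RefSeq promoter windows of this length, 7.66% hold the GAS letters and 3.57% the ISRE letters. Of the 30 synthetase genes with a window in this table, 5 held GAS letters (CARS1, PARS2, TARS1, WARS1 and WARS2) and 2 held ISRE letters (EARS2 and WARS1). The deposited values are summed over each gene, so the share of WARS1 reads from either start site was not measured here.

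WARS2, the mitochondrial tryptophanyl-tRNA synthetase, charges the same amino acid in the other compartment. Its expression was 5.47, 7.30, 8.20 and 6.22 CPM in control libraries A to D and 6.24, 6.45, 8.88 and 7.92 CPM in cytokine libraries A to D. The groups overlapped almost completely, and the difference did not pass the test (log2 fold change 0.12, SE 0.18, limma adjusted p = 0.675). Per transcript length (TPM, a length-corrected share of transcripts), WARS1 was 8.19 times as abundant as WARS2 in control and 366 times in cytokine libraries, taking the mean of the log2 ratios. The log2 ratio was 2.87 to 3.36 in control and 8.26 to 8.74 in cytokine libraries (difference 5.48), with p = 0.0286 by a 2-sided exact permutation test of 4 against 4 libraries, which can give no smaller value.

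**Figure D1:**
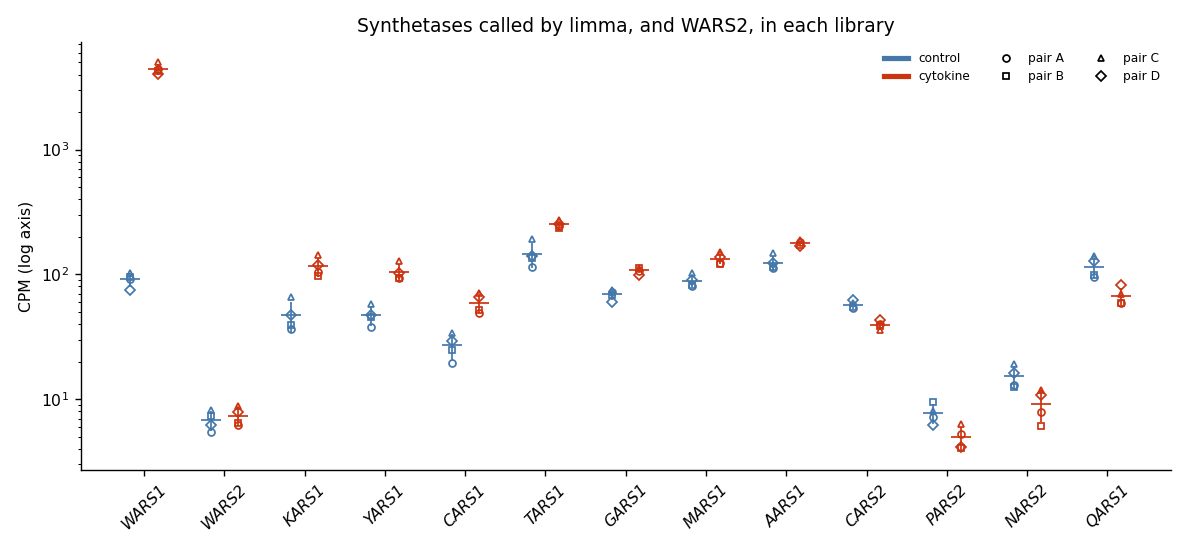
CPM on a log axis of WARS1, WARS2 and the other 11 synthetase genes called higher or lower, with a point for each control (blue) and cytokine (red) library, a symbol for each pair A to D and a horizontal line for the group mean with a vertical line for the SD. WARS1 lies at 75.1 to 104 CPM in control and 4009 to 5064 CPM in cytokine libraries, whereas WARS2 lies at 5.47 to 8.20 and 6.24 to 8.88 CPM.

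Across the 35 synthetases, 8 were called higher, 4 lower and 23 not at all, where a call needs a log2 fold change beyond 0.5 in either direction together with an adjusted p under 0.05. Over all 16525 genes tested by limma, 9.52% were called higher and 17.5% lower, beside 22.9% and 11.4% of the synthetases. The median log2 fold change was 0.01 over the synthetases and -0.17 over all genes. All 8 genes called higher were in the cytosolic group, namely WARS1, KARS1, YARS1, CARS1, TARS1, GARS1, MARS1 and AARS1. Of these, KARS1 and GARS1 supply both compartments. The 4 called lower were QARS1, which is cytosolic, and NARS2, PARS2 and CARS2, which are mitochondrial. Library ranges did not overlap for 8 synthetases above and 3 below control, against 10.8% and 21.9% of all genes.

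The scaling of the libraries moved the balance of these calls. With TMM scaling, which sets the bulk of genes level between libraries, the median of all genes moved from -0.17 to -0.02, and 13% of genes were called higher and 11.7% lower. On that scale 9 synthetases were called higher and 2 lower, as RARS1 joined the first group and CARS2 and PARS2 left the second. The median log2 fold change of the 35 genes was then 0.17.

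**Figure D2:**
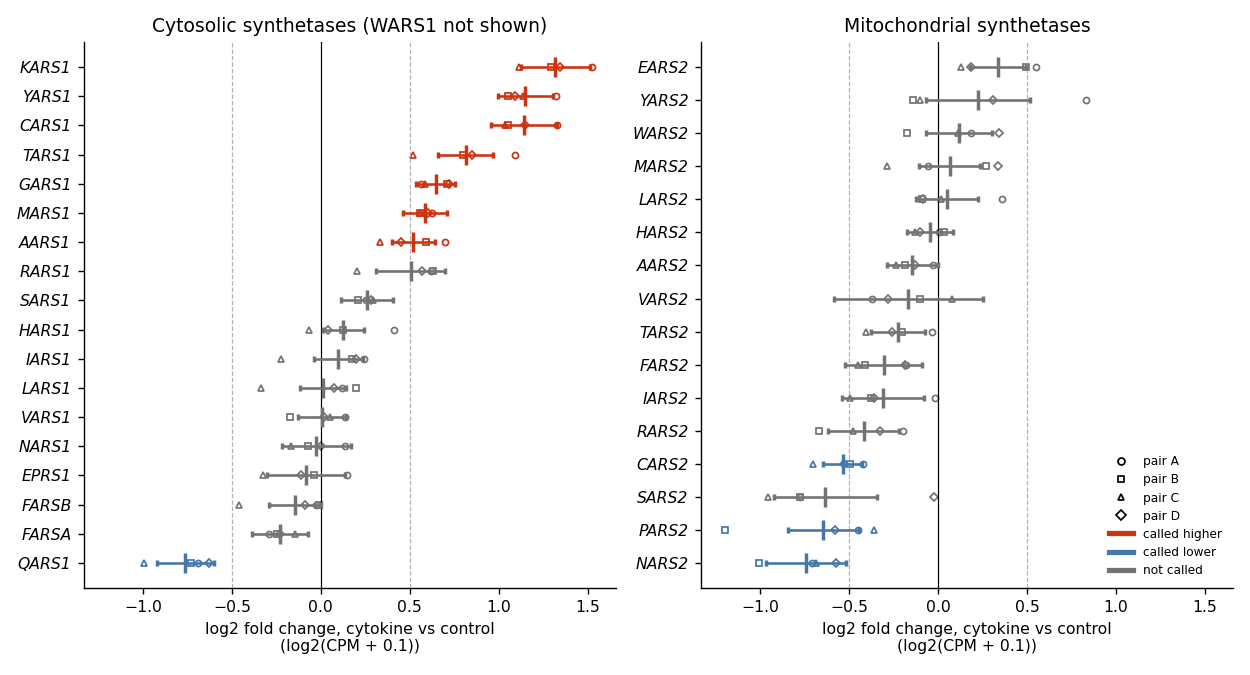
Log2 fold change of each synthetase except WARS1, cytokine against control on log2(CPM + 0.1), with cytosolic genes on the left and mitochondrial genes on the right. Thick ticks are the limma estimates, bars are 1 SE either side, symbols are the 4 pairs, colours mark the calls and dashed lines the 0.5 threshold, and the estimates run from -0.76 (QARS1) to 1.32 (KARS1) on the left and from -0.74 (NARS2) to 0.34 (EARS2) on the right.

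Among the 18 cytosolic genes other than WARS1, 7 (38.9%) were called higher and 1 (5.56%) lower, beside 9.52% and 17.5% of all genes. Their median log2 fold change was 0.19 (0.35 with TMM scaling). The largest of these changes was that of KARS1, the lysyl-tRNA synthetase of both cytosol and mitochondria. KARS1 was at 36.3, 39.3, 65.8 and 47.0 CPM in control libraries A to D and 104, 96.4, 143 and 119.5 CPM in cytokine libraries A to D. All cytokine values exceeded the highest control value (log2 fold change 1.32, SE 0.19, limma adjusted p = 5.24e-04).

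YARS1, the tyrosyl-tRNA synthetase, was at 37.6, 45.3, 58.3 and 47.7 CPM in control and 94.3, 94.0, 128 and 102 CPM in cytokine libraries A to D. The groups were well apart, and the log2 fold change was 1.15 (SE 0.16, limma adjusted p = 3.04e-04). CARS1, which charges cysteine, was at 19.5, 24.9, 34.2 and 29.4 CPM in control and 49.0, 51.7, 70.4 and 65.3 CPM in cytokine libraries. It more than doubled in each of the 4 pairs, with log2 differences of 1.04 to 1.33, and no cytokine library fell within the control range (log2 fold change 1.14, SE 0.19, limma adjusted p = 0.00105).

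TARS1, the threonyl-tRNA synthetase, was at 115, 136, 191 and 139.6 CPM in control and 245, 237, 273 and 251 CPM in cytokine libraries A to D. Control C stood above the other controls but below every cytokine library (log2 fold change 0.81, SE 0.15, limma adjusted p = 0.00247). GARS1, which charges glycine in both compartments, was at 72.1, 68.2, 75.3 and 60.5 CPM in control and 106.6, 112, 113 and 99.7 CPM in cytokine libraries. The spread within each group was small beside the difference between them (log2 fold change 0.64, SE 0.11, limma adjusted p = 0.00141).

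MARS1, which charges both initiator and elongator tRNA with methionine, was at 80.7, 82.5, 102 and 90.4 CPM in control and 124, 121, 150.2 and 137 CPM in cytokine libraries A to D. Its response was even across the pairs, from 0.56 to 0.62 (log2 fold change 0.59, SE 0.12, limma adjusted p = 0.00447). AARS1, the alanyl-tRNA synthetase, was at 112, 114, 149 and 123 CPM in control and 181, 172, 188 and 169 CPM in cytokine libraries. The groups did not overlap, but the change lay close to the threshold (log2 fold change 0.52, SE 0.12, limma adjusted p = 0.00811). The fold change of AARS1 fell below the threshold without control A (0.47), without control B (0.48) or without cytokine library C (0.49).

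QARS1 moved against these genes. This glutaminyl-tRNA synthetase was at 95.2, 98.2, 139 and 127 CPM in control and 59.0, 59.1, 69.9 and 82.1 CPM in cytokine libraries A to D. The highest cytokine value stayed below the lowest control value, and expression was lower in all 4 pairs, by log2 differences of -0.63 to -0.99 (log2 fold change -0.76, SE 0.16, limma adjusted p = 0.00499). The call held with TMM scaling (-0.61).

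RARS1, the arginyl-tRNA synthetase, was the gene at the edge of the upward calls. It was at 32.2, 29.8, 50.3 and 46.3 CPM in control and 49.4, 46.2, 57.9 and 68.8 CPM in cytokine libraries A to D. The groups overlapped, since control C exceeded cytokine libraries A and B, although the difference was positive in each pair. RARS1 was not called by limma on CPM (log2 fold change 0.51, SE 0.19, adjusted p = 0.0704), but was called with TMM scaling (0.66, adjusted p = 0.0102), with a replicate block that pairs libraries of the same letter (0.51, adjusted p = 1.03e-04) and without control C (0.63, adjusted p = 0.0301). With the replicate block, 11.6% of all genes were called higher and 23.8% lower, and 9 synthetases were called higher and 5 lower.

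The remaining 9 cytosolic genes had log2 fold changes from -0.23 to 0.26, and their ranges overlapped in every case. SARS1, the seryl-tRNA synthetase, was nearest to a change (0.26, limma adjusted p = 0.198), with a positive difference of 0.21 to 0.29 in each pair. FARSA and FARSB, the subunits of phenylalanyl-tRNA synthetase, gave -0.23 and -0.15. For HARS1, IARS1, LARS1, VARS1, NARS1 and EPRS1 the estimates were 0.13, 0.10, 0.01, 0.01, -0.03 and -0.08, with SE of 0.11 to 0.22, and those of FARSB, NARS1 and EPRS1 turned positive with TMM scaling (0.01, 0.13 and 0.07). EPRS1, a fused glutamyl- and prolyl-tRNA synthetase, is known for a role in translational control after IFNγ.

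Calls among members of the multisynthetase complex went in both directions. Of the 7 complex members listed here, KARS1 and MARS1 were called higher (28.6%), QARS1 was called lower (14.3%), and RARS1, EPRS1, IARS1 and LARS1 were not called (median 0.10). Outside the complex, 5 of 11 cytosolic genes other than WARS1 were called higher (45.5%) and 0 lower (median 0.26). Of all genes 9.52% were called higher and 17.5% lower, so the share of complex members called lower was close to that of all genes. With TMM scaling or the replicate block 3 of 7 complex members (42.9%) and 5 of 11 of the others (45.5%) were called higher, so the shares were then nearly level. Of all genes 13% were then called higher with TMM scaling and 11.6% with the block. At an unadjusted p under 0.05, QARS1 was the only cytosolic gene on the lower side, by limma and by edgeR. The scaffold genes AIMP1, AIMP2 and EEF1E1 gave 0.16, 0.11 and -0.21, and 0 of the 3 passed the test or an unadjusted p under 0.05 by limma or edgeR. EEF1E1 was low throughout, at 1.33 to 1.99 CPM in control and 1.07 to 1.71 CPM in cytokine libraries.

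Because some cytosolic synthetase genes are known ATF4 targets, their RefSeq promoter windows were searched on both strands for the letters TGATGNAA of the C/EBP-ATF response element, a choice made after the expression values were known. The letters were in 3.62% of all promoter windows and in 8 of the 39 windows of the synthetases, each from another gene. The sequences around these matches are shown because 5 of the 8 genes were called higher, beside 22.9% of the 35 synthetases and 9.52% of all genes. Whether the matches bear on the calls was not tested. Matched letters are in capitals, read 5′ to 3′ on the strand of the gene. VARS1, VARS2, YARS1, LARS1 and AARS2 have no window in this table.
AARS1 (chr16:70289675-70289704, minus strand): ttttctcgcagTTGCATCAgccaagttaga
CARS1 (chr11:3057407-3057436, minus strand): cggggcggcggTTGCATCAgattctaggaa
GARS1 (chr7:30594834-30594863, plus strand): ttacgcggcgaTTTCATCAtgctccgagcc
MARS1 (chr12:57488053-57488082, plus strand): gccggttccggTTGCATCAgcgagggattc
TARS1 (chr5:33440956-33440985, plus strand): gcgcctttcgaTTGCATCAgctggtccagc
IARS1 (chr9:92293692-92293721, minus strand): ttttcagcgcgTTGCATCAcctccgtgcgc
NARS1 (chr18:57621804-57621833, minus strand): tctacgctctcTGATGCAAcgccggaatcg
YARS2 (chr12:32756076-32756105, minus strand): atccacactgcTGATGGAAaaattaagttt
AARS1, CARS1, GARS1, MARS1 and TARS1 were called higher, and IARS1 (0.10), NARS1 (-0.03) and YARS2 (0.23) were not called. KARS1 and WARS1, which were also called higher, do not hold these letters in their windows. In CARS1 the match begins at base -2 and a GAS match at base 8 from the start site, with no overlap between them.

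Among the 16 mitochondrial synthetases, 3 (18.8%) were called lower and 0 higher by limma, beside 17.5% and 9.52% of all genes. Their median log2 fold change of -0.20 was likewise close to the -0.17 of all genes, and 0 had an unadjusted p under 0.05 on the higher side. With TMM scaling 1 was called lower and 0 higher (median -0.06), and edgeR with TMM called 0 in either direction, with 1 higher and 3 lower at an unadjusted p under 0.05.

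NARS2, the mitochondrial asparaginyl-tRNA synthetase, showed the largest drop. It was at 13.1, 12.4, 19.2 and 16.1 CPM in control and 7.96, 6.13, 11.9 and 10.8 CPM in cytokine libraries A to D. The highest cytokine value lay just under the lowest control value (log2 fold change -0.74, SE 0.23, limma adjusted p = 0.028). With TMM scaling NARS2 was still called (-0.59, adjusted p = 0.0423), whereas edgeR with TMM did not call it (-0.56, adjusted p = 0.0573). The call was lost without control C (-0.63, adjusted p = 0.069), without control D (-0.71, adjusted p = 0.069), without cytokine library A (-0.69, adjusted p = 0.0721) and without cytokine library B (-0.57, adjusted p = 0.072).

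PARS2, the mitochondrial prolyl-tRNA synthetase, was at 7.23, 9.48, 8.10 and 6.20 CPM in control and 5.26, 4.08, 6.30 and 4.12 CPM in cytokine libraries A to D. Cytokine library C lay above control D, so the groups overlapped slightly, and PARS2 was the only called synthetase with overlapping ranges (2-sided exact permutation test, p = 0.0571). The log2 fold change was -0.65 (SE 0.20, limma adjusted p = 0.0305), and pair B had the largest difference, -1.20. TMM scaling ended the call (-0.496, adjusted p = 0.0903), as did leaving out control B (-0.54, adjusted p = 0.0913), control C (-0.62, adjusted p = 0.0614) or cytokine library A (-0.68, adjusted p = 0.0526), B (-0.56, adjusted p = 0.084) or D (-0.57, adjusted p = 0.0818).

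CARS2, the mitochondrial cysteinyl-tRNA synthetase, is also known to make cysteine persulfides. It was at 53.4, 54.6, 58.7 and 62.4 CPM in control and 39.9, 38.6, 36.1 and 43.2 CPM in cytokine libraries A to D. The groups were clearly apart, and the spread within them was small (log2 fold change -0.54, SE 0.11, limma adjusted p = 0.00407). With TMM scaling the difference still had an adjusted p of 0.0131, but its size of -0.38 was under the threshold, and without control D or without cytokine library C it was -0.495.

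For the other 13 mitochondrial genes, WARS2 included, the log2 fold changes ran from -0.63 to 0.34, and the ranges overlapped in every case. SARS2, which charges serine, had the lowest of these estimates (-0.63, SE 0.29, limma adjusted p = 0.12). It was called lower with the replicate block (adjusted p = 0.0177) and without cytokine library D (-0.86, adjusted p = 0.0385), and 3 of its pairs gave -0.77 to -0.96 while pair D gave -0.02. SARS2 counts are uncertain, since 1492 of its 3231 exon bases are shared on the same strand with another annotated gene, AC011455.2, and rest on 45 to 121 reads a library. EARS2, which charges glutamate, had the highest estimate (0.34, SE 0.16, limma adjusted p = 0.129) and was the only mitochondrial gene with a positive difference in all 4 pairs. Its estimate reached 0.49 with TMM scaling, just under the threshold, and it was called higher with median-of-ratios scaling (0.5001, adjusted p = 0.0128).

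YARS2, MARS2 and LARS2 had estimates of 0.23, 0.07 and 0.05. Those of HARS2, AARS2, VARS2, TARS2, FARS2, IARS2 and RARS2 were -0.05, -0.14, -0.17, -0.22, -0.31, -0.31 and -0.42, and the adjusted p of these 10 genes was at least 0.138. HARS2 and AARS2 turned positive with TMM scaling (0.10 and 0.01). VARS2, the least expressed synthetase, had 16 to 58 reads a library and shares 1858 of its 8448 exon bases on the same strand with GTF2H4, so its value is uncertain too. HARS1 and HARS2 are neighbours on opposite strands that share 437 exon bases. Over the 16 genes, the difference was negative in all 4 pairs for 9 and positive in all 4 for 1. Among the 18 cytosolic genes other than WARS1 it was positive in all 4 pairs for 9 and negative in all 4 for 3. The share of all genes with the same direction in every pair was not computed. Of all 16525 estimates 10492 were negative, beside 11 of the 16 mitochondrial and 5 of the 18 cytosolic ones. With TMM scaling 8470, 9 and 2 were negative.

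Genes can be compared by abundance only per length. In control libraries SARS1 (108 ± 26.7 TPM), AARS1 (107.2 ± 27.6), FARSA (100.3 ± 11.9), TARS1 (99.1 ± 32.8) and QARS1 (95.4 ± 30.5) were the most abundant synthetase transcripts (mean ± SD, n = 4). The SD of these 5 genes exceeded the differences between their means, so their order is not resolved. Cytosolic genes had a median of 47.3 TPM without WARS1 and mitochondrial genes a median of 15.4 TPM. The compartments overlapped. The mitochondrial genes IARS2 (32.7 TPM) and RARS2 (29.8 TPM) lay above LARS1, YARS1, HARS1 and CARS1. CARS1 was the scarcest cytosolic transcript at 10.5 ± 3.71 TPM. TPM here divides by all annotated exon bases, and the lengths of the transcripts expressed were not measured. These bases were 8118, 8212, 7853 and 10037 for LARS1, YARS1, HARS1 and CARS1, beside 4165 for IARS2 and 2545 for RARS2. In CPM, LARS1, YARS1 and HARS1 (50.7, 47.2 and 44.8) lay above IARS2 (34.4) and RARS2 (19.4), so this order depends on the length used. CARS1 (27.0 CPM) lay between IARS2 and RARS2. At the lower end were FARS2 (3.17 TPM), SARS2 (2.49 TPM) and VARS2 (0.358 TPM). After cytokine exposure WARS1 moved from rank 8 to rank 1 with 2896 ± 483 TPM, ahead of TARS1 (183 ± 30.4 TPM) and AARS1 (164 ± 20.6 TPM), while QARS1 moved from rank 5 to rank 11.

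**Figure D3:**
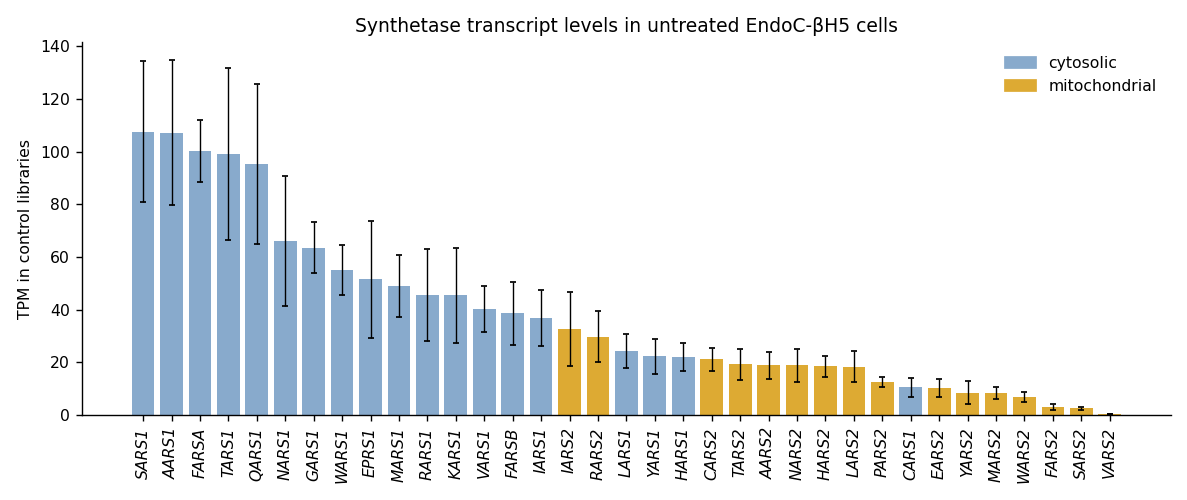
Mean TPM of each of the 35 synthetase genes in the 4 control libraries, in descending order, with error bars of 1 SD either side, cytosolic genes in blue and mitochondrial genes in yellow. SARS1 is highest at 108 TPM and VARS2 lowest at 0.358 TPM, and the highest mitochondrial genes, IARS2 and RARS2, stand above 4 cytosolic genes.

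Summed over genes, WARS1 made up 5.67 ± 0.93% of synthetase CPM in control and 70.1 ± 1.83% in cytokine libraries (SD, n = 4 each). The other 18 cytosolic genes summed to 1108, 1158, 1555 and 1289 CPM in control and 1571, 1521, 1843 and 1695 CPM in cytokine libraries A to D. Control C lay above cytokine library B, so the groups overlapped, although each cytokine library exceeded the control of its own pair. The 16 mitochondrial genes summed to 228, 236, 308 and 287 CPM in control and 219, 194, 244 and 244 CPM in cytokine libraries, and these ranges overlapped too. GARS1 and KARS1, which supply both compartments, were counted as cytosolic in these sums. The ratio of these cytosolic to mitochondrial sums does not depend on the scaling of a library. It was 4.85, 4.90, 5.06 and 4.49 in control and 7.18, 7.84, 7.55 and 6.95 in cytokine libraries A to D, so that every cytokine library lay above every control library.

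**Figure D4:**
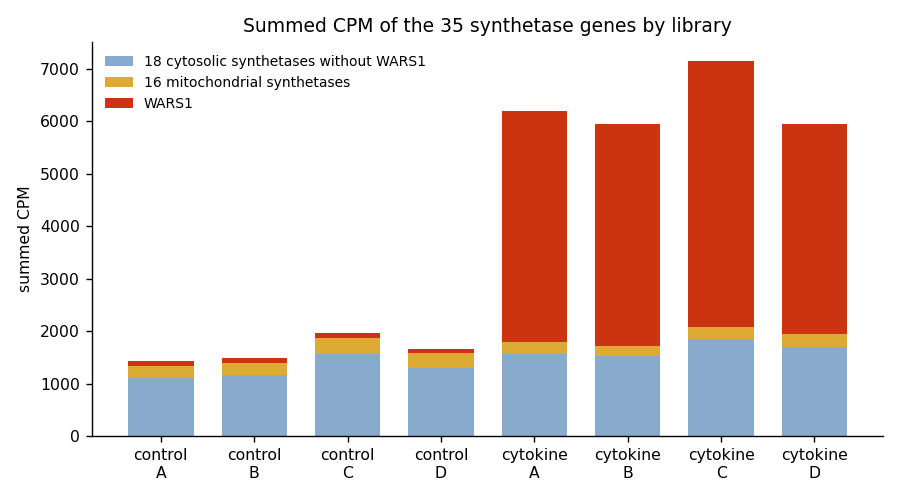
Stacked bars of summed CPM for the 35 synthetase genes in each of the 8 libraries, split into 18 cytosolic genes without WARS1 (blue), 16 mitochondrial genes (yellow) and WARS1 (red). The whole stack stands at 1428 to 1967 CPM in control and 5947 to 7150 CPM in cytokine libraries, and the red segment accounts for most of the latter.

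Taken amino acid by amino acid, the shift was uneven. For 15 pairs of a cytosolic and a mitochondrial gene for the same amino acid, with FARSA and FARSB each set against FARS2, the log2 TPM ratio within a library was taken. The mean ratio was higher in cytokine than in control libraries for 14 pairs, the exception being LARS1 over LARS2 (0.42 in control and 0.38 in cytokine libraries). The library ranges did not overlap for 8 pairs, all of them higher after cytokine exposure, and overlapped for 7. These 8 were the pairs for tryptophan, cysteine, threonine, arginine, tyrosine, asparagine, alanine and methionine. All but the arginine pair hold a gene called in the same libraries, so the ratios are not a separate test. No share over other pairs of genes was computed. Apart from tryptophan the largest shift was that of CARS1 over CARS2, whose log2 ratio was -1.40, -1.07, -0.72 and -1.02 in control and 0.36, 0.48, 1.02 and 0.66 in cytokine libraries A to D. The mitochondrial gene was thus the more abundant transcript of this pair in every control library, and the cytosolic gene in every cytokine library. For threonine the mean log2 ratio went from 2.36 ± 0.19 to 3.40 ± 0.11, and for arginine from 0.59 ± 0.14 to 1.52 ± 0.16 (SD, n = 4 each). The asparagine ratio went from 1.79 ± 0.11 to 2.52 ± 0.18, with NARS1 at a log2 fold change of -0.03 and NARS2 at -0.74.

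**Figure D5:**
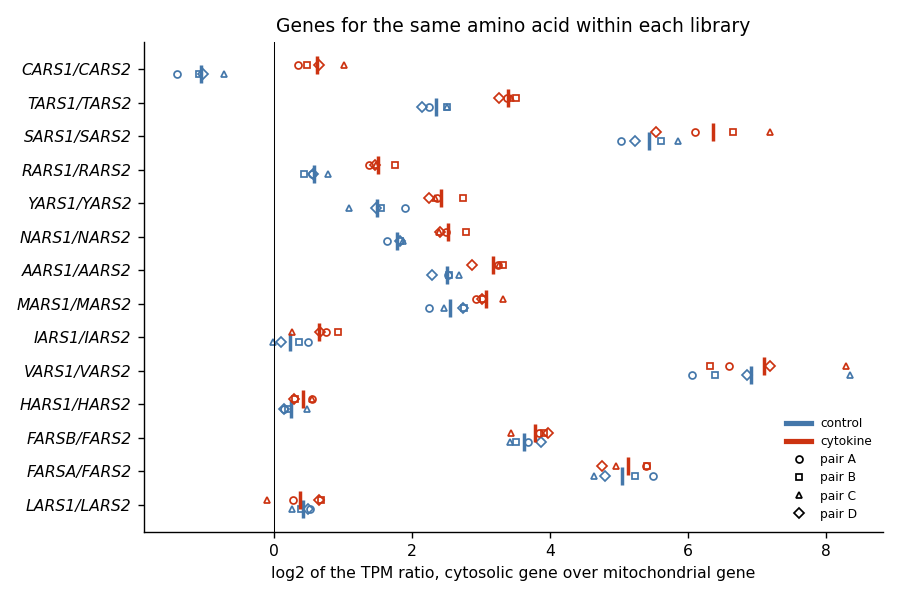
Log2 of the TPM ratio of the cytosolic over the mitochondrial gene for the same amino acid, for 14 pairs without WARS1 over WARS2, with a point for each control (blue) and cytokine (red) library, a symbol for each pair A to D and a vertical tick for the group mean. Rows are ordered by the difference between the groups, from CARS1 over CARS2 (mean -1.05 to 0.63) at the top to LARS1 over LARS2 at the bottom.

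Libraries C and D differed from A and B before any treatment. In control cells the mean log2 level of C and D exceeded that of A and B by 0.77 for YARS2, 0.76 for IARS2, 0.75 for EPRS1 and 0.64 for RARS1, and lay below it by -1.09 for VARS2. No synthetase passed an interaction test of whether the cytokine response differed between the A and B and the C and D libraries (limma, lowest adjusted p = 0.999), which called 5 of 16525 genes. The log2 differences within A and B and within C and D are given as values only, since the genes were called on the same libraries. For RARS1 they were 0.62 and 0.39. For KARS1 the values were 1.41 and 1.23, for YARS1 1.19 and 1.11, for TARS1 0.95 and 0.68, for AARS1 0.64 and 0.39, for QARS1 -0.71 and -0.81, for NARS2 -0.86 and -0.63, and for PARS2 -0.82 and -0.47.

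Counts for other genes that handle tRNA were read beside the 9.52% of all genes called higher and the 17.5% called lower. Of 12 genes whose products modify, process or amidate mitochondrial tRNA or formylate it, 1 was called lower and 0 higher by limma, and the called gene was GTPBP3, a tRNA-modifying enzyme (log2 fold change -0.60, adjusted p = 0.00654). TMM scaling ended that call (-0.44), and then 0 of the 12 were called, with 3 higher and 3 lower at an unadjusted p under 0.05. Of 8 further genes, most of them for tRNA export, proofreading, methylation and selenocysteine loading, 0 were called by limma or by edgeR with TMM, with 0 and 1 at an unadjusted p under 0.05.

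ATF4, which drives the amino acid response, was called higher, from 185 to 264 CPM in control to 318 to 449 CPM in cytokine libraries (log2 fold change 0.74, SE 0.16, limma adjusted p = 0.00511). Of the 24 genes of this list in the table, 8 (33.3%) were called higher and 3 (12.5%) lower, beside 9.52% and 17.5% of all genes. The largest rises were those of PPP1R15A, a phosphatase subunit that reverses eIF2 phosphorylation (3.07), CTH, which makes cysteine (2.14), and CEBPB, a transcription factor (2.11). The called genes on the lower side were PSPH (-0.87), which makes serine, VLDLR (-0.61) and SESN2 (-0.50), and none of these 3 was called with TMM scaling, on which limma called 10 genes higher and 0 lower, as did edgeR, each with 2 lower at an unadjusted p under 0.05.

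Phosphorylation of eIF2 lies upstream of ATF4. Among the 4 eIF2 kinases, EIF2AK3, which senses stress of the endoplasmic reticulum, and EIF2AK2, which senses double-stranded RNA, were called higher (log2 fold changes 0.997 and 0.99, limma adjusted p = 3.05e-04 and 9.45e-05). EIF2AK4, which senses uncharged tRNA, and EIF2AK1 gave -0.15 (limma adjusted p = 0.541) and -0.36 (limma adjusted p = 0.0381) and did not pass both thresholds. These are transcript levels, and kinase activity was not measured.

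Of 12 genes for amino acid transporters, 5 were called higher and 3 lower (41.7% and 25%, beside 9.52% and 17.5% of all genes), and 6 and 3 with TMM scaling (50% and 25%, beside 13% and 11.7%). The cystine transporter gene SLC7A11 rose from 0 to 0.179 CPM in control to 0.213 to 0.944 CPM in cytokine libraries (1.75, limma adjusted p = 0.0146), a change between very low levels. SLC38A2, which carries small neutral amino acids, and SLC7A5, which carries large neutral ones including tryptophan, rose by log2 fold changes of 1.54 and 1.53. SLC6A9, a glycine transporter, fell (-1.07), as did SLC7A8 (-0.78) and SLC43A2 (-0.75), which carry large neutral amino acids.

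Tryptophan, the substrate of WARS1, also enters other pathways. Of 11 listed genes of these pathways, 5 were in the table, and not all of them act on tryptophan itself. Among the 5, 1 was called higher and 4 lower, beside 9.52% and 17.5% of all genes. KYAT3 rose (0.54, limma adjusted p = 0.00811), and DDC (-1.39), AFMID (-1.23) and TPH1 (-1.21) fell, as did HAAO (-1.14), which is named outside the rule for named genes. IDO1, the interferon-inducible enzyme that opens the tryptophan ring, was not analysed here.

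WARS1 rose alongside the IFNγ response. All 14 listed genes of that response were called higher, beside 9.52% of all genes, with a median log2 fold change of 6.91. The list was chosen with earlier results of these data known, so this count is a description and not a test. The value of 5.60 for WARS1 lay within the range of 3.72 to 10.14 of these genes. IRF1, an interferon-induced transcription factor, rose from 10.3 to 12.8 CPM in control to 635 to 977 CPM in cytokine libraries (6.03). In this fit the highest estimates of the list were those of CXCL10 (10.14), GBP1 (9.89) and CXCL9 (7.96), and edgeR with TMM gave 9.65, 9.01 and 7.77, with GBP2 at 9.11, so the order depends on the test. Control values of CXCL10 (0 to 1.55 CPM) and GBP1 (0.0199 to 2.48 CPM) were near the floor in some libraries. Both were among the genes called in the interaction test, with 7.9997 in A and B and 12.29 in C and D for CXCL10 (limma adjusted p = 7.45e-04) and 7.84 and 11.94 for GBP1 (limma adjusted p = 8.77e-05). No library analysed here received a single cytokine, so the contribution of each cytokine to the rise of WARS1 cannot be told apart in these data.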

How the data were processed

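Total RNA from EndoC-βH5 cells was sequenced by the authors as stranded, paired-end libraries. Per the methods and the submitters' processing notes, reads were aligned with TopHat2 2.1.1 to GRCh38 and assigned to Ensembl release 107 genes with HTSeq 0.9.1 at default settings, under which a read that falls on more than 1 gene is not counted. The deposited values are CPM, kept by the authors for genes above 0.5 CPM in at least 4 samples. Another 4 columns of values in the table were not used. All values used (100%) came out as whole reads within 0.1 read, which gave the count behind each.

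Groups come from the sample labels. Values were tested as log2(CPM + 0.1) by limma 3.58.1 (R 4.3.3), with the variance trended on mean level, over all 8 libraries without a block, and p-values were adjusted over 16525 genes by the Benjamini-Hochberg method. Calls needed a log2 fold change beyond 0.5 in either direction and an adjusted p under 0.05. Alternatives took the recovered reads into edgeR 4.0.16 and DESeq2 1.42.0, and tried other scalings, pseudocounts of 0.5 and 1, a filter at a mean of 1 CPM, and each library left out in turn. A fit with both TMM scaling and a replicate block was added after seeing the data. For low genes, fold changes on log2(CPM + 0.1) can lie below or above those of edgeR. Without TMM, edgeR gave 2.53 for SLC7A11 beside 1.75 here, and 8.91 for GBP1 beside 9.89 here. The 2-sided exact permutation tests on ratios within a library and on individual genes were made with scipy 1.17.1. TPM used the exon bases of GENCODE 29 genes. Promoters are RefSeq windows of GRCh38.p14. Scripts were tested on simulated data. Python 3.11.15 with numpy 2.4.6 and pandas 2.3.3 wrote the tables, and matplotlib 3.10.9 drew the plots.

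The members and the gene lists (cell type markers, tRNA partners, amino acid response, eIF2 kinases, transporters, tryptophan use and IFNγ response) were chosen with earlier results of these data known. All synthetases are named, with each library's value for WARS1, WARS2, every called gene and every gene whose call changed with TMM scaling. From the other lists, up to 3 called genes with the largest change in each direction are named, with ATF4, IDO1 and IRF1. Another gene of this rule is not reported here.

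The columns carry no replicate number. Libraries were paired where column names begin alike. As a check, the correlation over genes of how far paired libraries lie from their group means was 0.457 for A, 0.504 for B, 0.748 for C and 0.682 for D. Crossing A and B gave 0.447 and 0.489, so these pairs could equally be crossed. The labels do not say that libraries came from separate cultures, so p-values measure the spread between these libraries, which may be partly technical.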

Additional observations from a re-analysis of the deposited data

Results flagged for a closer look

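A value was noted where the highest or lowest of 4 libraries stood apart from the others by more than the critical value of Dixon's test allows. Over 70 groups screened, 4 values met this, and chance alone gives about 1 in 20 groups. SARS1 in control C was at 130 CPM, with the other controls at 98.4 to 99.9 CPM. Its cytokine counterpart, cytokine library C, was likewise the highest of its group, at 159 CPM against 114 to 120 CPM, so that the difference within pair C (0.29) was close to that of the other pairs (0.21 to 0.28). FARSA in cytokine library D was at 42.6 CPM, below 58.3 to 60.9 CPM in the other cytokine libraries, and control D was also the lowest control, at 49.9 CPM. IARS1 in cytokine library D was at 87.9 CPM, above 69.7 to 71.6 CPM in the others.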

How the results depend on the processing

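The rise of WARS1, KARS1, YARS1, CARS1, TARS1, GARS1 and MARS1 and the fall of QARS1 were called under every alternative scaling, pseudocount, low-value filter, variance model, test and block tried and without any single library, apart from a limma treat test against a minimum change of 0.5. The count called higher was 8, and treat reduced it to 4. The count called lower was 4 and was 2 with TMM scaling, with median-of-ratios scaling, with DESeq2, with edgeR with TMM and a replicate block and with limma with TMM scaling and a replicate block, 1 with edgeR with TMM and 0 with treat, and ran from 2 to 4 when a library was left out. Of the 18 cytosolic genes other than WARS1, 8 were called, and 3 with treat. Of the mitochondrial genes 3 were called, and 1 with TMM scaling, DESeq2, edgeR with TMM and a replicate block and limma with TMM scaling and a replicate block, 0 with edgeR with TMM and 0 with treat (3 and 0 lower at an unadjusted p under 0.05), and 1 to 3 when a library was left out. The lowest counts on leaving out a library came without control C, control D, cytokine library A or cytokine library B. The cause of these changes was not tested. The replicate block made RARS1 and SARS2 calls and changed no other call among the 35 genes.

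Over single synthetases, 674 values kept their direction and side of the threshold under the alternatives, 13 came to pass it, 28 no longer did and 54 changed sign, and none of the genes that changed sign was called under the main or that alternative fit. With TMM scaling EPRS1, FARSB, NARS1, AARS2 and HARS2 turned to 0.069, 0.0065, 0.13, 0.0084 and 0.10, with or without the replicate block. Median-of-ratios scaling gave 0.079, 0.016, 0.14, 0.018 and 0.11, edgeR with TMM 0.058, 0.0073, 0.13, 0.014 and 0.11, DESeq2 0.065, 0.013, 0.14, 0.020 and 0.11, and edgeR with TMM and the replicate block 0.072, 0.0098, 0.13, 0.013 and 0.11 for the same genes in that order. Quantile normalization gave -0.0049 for VARS1 and 0.022 for HARS2. Leaving out a library in turn gave -0.23 to 0.086 for EPRS1, -0.054 to 0.083 for LARS1, -0.14 to 0.12 for NARS1, -0.084 to 0.083 for VARS1, -0.094 to 0.017 for HARS2, -0.061 to 0.17 for LARS2, -0.032 to 0.16 for MARS2, -0.51 to 0.089 for VARS2 and -0.0032 to 0.46 for YARS2. The log2 difference in the WARS1 to WARS2 ratio ran from 5.41 to 5.59 without a library, where 3 against 4 libraries cannot give an exact permutation p under 0.0571.

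At 36577438 or more reads a library, counting error is small for most synthetases, but VARS2 and SARS2 rest on few reads. With 4 libraries a group, the calls of genes near the 0.5 threshold (AARS1, RARS1, CARS2, NARS2, PARS2 and SARS2) depended on the scaling, the block or a single library.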
